A study of Rattus norvegicus with 32 samples.

Results

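The 7 subunits of respiratory complex I that the mitochondrial genome encodes, Mt-nd1, Mt-nd2, Mt-nd3, Mt-nd4, Mt-nd4l, Mt-nd5 and Mt-nd6, were followed in the hippocampus of adult rats. They were chosen by symbol, as 7 of the 32883 genes in each count table, and they are the complete set of complex I subunits encoded there. The set was proposed with diet comparisons of these same libraries in view, so the diet differences of its genes are given as descriptions. Where a threshold on p sorts them, it describes the fitted values and is not evidence independent of that choice. Each of the 7 genes passed the filter on low counts in every comparison.

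Hippocampal RNA was sequenced from 32 Sprague-Dawley rats aged 65 days, 4 males and 4 females in every one of 4 diet groups. Control rats were always iron-sufficient (IS), and ISch rats were iron-sufficient with added choline. FID rats, labelled ID, were formerly iron-deficient, and FIDch rats, labelled IDch, were formerly iron-deficient with added choline. In the study's methods for the males, the dams ate a low-iron diet from early gestation until the first postnatal week, choline was added to the dams' diet in mid to late gestation, all pups were iron-repleted afterwards, and a single male per litter was used. The 16 male libraries form sequencing batch I and the 16 female libraries form batch II, and RNA was isolated with another kit in each, so that sex, batch and isolation cannot be told apart. Whether the females came from separate litters is not given in the sources used here. If litters were shared, the spread between those libraries would understate the spread between litters.

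Complex I, NADH:ubiquinone oxidoreductase, takes electrons from NADH, passes them along a chain of iron-sulfur clusters to ubiquinone and pumps protons across the inner mitochondrial membrane. Its membrane arm is built around the subunits encoded by mitochondrial DNA, and its hydrophilic arm, with the flavin and the iron-sulfur clusters, is built from nuclear genes. The mitochondrial genome is read as long transcripts from both strands, which are then cut into single mRNAs. Mt-nd6 is the only mRNA on the light strand, and Mt-nd4l and Mt-nd4 stay together on a bicistronic mRNA. Neurons depend heavily on oxidative phosphorylation.

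Library totals ran from 3515806 to 9517503 counts in batch I, lowest in FIDch replicate 2, and from 18439999 to 26616318 in batch II. The lowest raw count of any of the 7 genes in any library was 952 in batch I and 450 in batch II. Levels are CPM, the usual unit of counts scaled to a common library size, with TMM factors taken over the 16 libraries of a batch. Neuronal, astrocyte, oligodendrocyte and microglia marker lists were detected in all 32 libraries, as were the lists for the dentate gyrus, CA1 and CA3. The choroid plexus list ran from 5.76 to 385 CPM in FID of batch I, above every library of the other batch I groups, which reached at most 5.69 CPM. Its part in the results was not tested. In bulk RNA, fewer cells of a type and less RNA per cell cannot be told apart.

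FIDch replicate 2 of batch I stood apart from the other FIDch libraries in its mitochondrial mRNAs. Over the 13 mitochondrial mRNAs, each library's composition was set against the mean composition of each diet group without that library, as a root mean square distance in log2 units. For FIDch replicate 2 this distance was 0.115 to the ISch group, 0.222 to the other FIDch libraries, 0.276 to IS and 0.286 to FID. For FIDch replicates 1, 3 and 4 it was 0.090, 0.069 and 0.107 to their own group and at least 0.209 to any other. All 4 ISch libraries were nearest to ISch, at 0.037 to 0.119, and all 4 FID libraries were nearest to FID. IS replicate 1 was nearest to IS and replicate 4 to FID, while for IS replicates 2 and 3 the distances to IS and FID were equal to 3 decimals. In the count table, FIDch replicate 2 and ISch replicates 1 and 2 carry names of another form than the other libraries of batch I. Its share of counts on the other 24 mitochondrial genes, 0.517%, lay inside the FIDch range of 0.510% to 0.575% and below the ISch range of 0.591% to 0.651%. Its label was kept, and whether it was handled or labelled differently from the other FIDch libraries was not tested. The FIDch values of batch I depend on that label, and the main ones are given with and without this library.

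Mt-nd1 sits at the junction of the membrane and hydrophilic arms, where ubiquinone enters. Its level in batch I was 7478, 7005, 7156 and 6163 CPM in IS and 4998, 4385, 4846 and 4618 CPM in ISch. It was 6303, 6725, 6065 and 6133 CPM in FID and 6699, 4792, 6520 and 6444 CPM in FIDch. All ISch libraries lay below all IS and all FID libraries, and FIDch replicate 2 lay inside the ISch range while the other FIDch libraries lay inside the IS range. Here and below, the share of all genes whose groups lay apart in this way was not computed, so such separations are descriptions only. The ISch mean was 4712 ± 268 CPM against 6950 ± 561 CPM in IS (SD, n = 4), a log2 fold change of -0.56 with a standard error of 0.059. FIDch stood at -0.18 (standard error 0.096) against IS with all 4 libraries and at -0.08 without replicate 2.

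Mt-nd2 is an antiporter-like subunit of the proton-pumping membrane arm. In batch I it stood at 8974, 8480, 8639 and 7874 CPM in IS and at 5720, 4937, 5410 and 5101 CPM in ISch. FID had 7861, 8580, 7675 and 8212 CPM, and FIDch had 7971, 5209, 8076 and 7478 CPM. The pattern repeated that of Mt-nd1, with ISch below every IS and FID library and FIDch replicate 2 at the ISch level. The log2 fold change of ISch against IS was -0.68 with a standard error of 0.053, from 8492 ± 460 to 5292 ± 346 CPM (SD, n = 4). FIDch against IS was -0.24 (standard error 0.110) with replicate 2 and -0.11 without it.

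Mt-nd5 and Mt-nd4 are the other antiporter-like subunits. Mt-nd5 had 4092, 5013, 5093 and 4158 CPM in IS, 4397, 3663, 3764 and 3742 CPM in ISch and 4873, 4592, 4495 and 4618 CPM in FID. FIDch had 3992, 3542, 4077 and 4121 CPM. All FIDch libraries lay below all FID libraries, whereas ISch and IS overlapped through ISch replicate 1, at a log2 fold change of -0.24 (standard error 0.080). The log2 fold change of Mt-nd5 was -0.25 (standard error 0.056) for FIDch against FID, and -0.20 without FIDch replicate 2. Mt-nd4 had 417, 427, 428 and 309 CPM in IS, 377, 258, 267 and 274 CPM in ISch and 332, 333, 303 and 313 CPM in FID. FIDch had 308, 334, 305 and 267 CPM. IS replicates 1 to 3 lay above all other batch I libraries for Mt-nd4, and IS replicate 4 lay among the other groups. Against IS, Mt-nd4 was at -0.31 in FID, -0.43 in ISch and -0.38 in FIDch on the log2 scale, with standard errors of 0.093, 0.124 and 0.101. The FIDch value was -0.43 without replicate 2. These comparisons share the same 4 IS libraries.

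The small subunits Mt-nd3, Mt-nd4l and Mt-nd6 lie in the membrane arm, next to Mt-nd1 and towards Mt-nd2. Mt-nd3 in batch I had 471, 400, 452 and 348 CPM in IS, 360.5, 316, 306 and 323 CPM in ISch and 406, 426, 357 and 389 CPM in FID. FIDch had 327, 269, 323 and 331 CPM. Each FIDch library lay below each IS and each FID library. The log2 fold change of FIDch was -0.41 (standard error 0.095) against IS and -0.34 (standard error 0.074) against FID. Without replicate 2 these were -0.35 and -0.28. ISch against IS stood at -0.35 (standard error 0.0855), with ISch replicate 1 above IS replicate 4.

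Mt-nd6 in batch I had 1485, 1445, 1466 and 1210 CPM in IS, 1349, 1131, 1201 and 1172 CPM in ISch and 1430, 1371, 1255 and 1593 CPM in FID. FIDch had 1188, 1068, 1205 and 1188 CPM. Again all FIDch libraries lay below all IS and all FID libraries. Its log2 fold change in FIDch was -0.27 (standard error 0.071) against IS and -0.29 (standard error 0.071) against FID, and -0.23 and -0.25 without replicate 2. ISch against IS stood at -0.21 (standard error 0.070) with overlapping groups. By CPM, Mt-nd4l did not share the pattern in batch I. Its means were 496 ± 65.2 CPM in IS, 494 ± 58.1 CPM in ISch, 506.5 ± 25.8 CPM in FID and, for FIDch, 506 ± 39.2 CPM (SD, n = 4), and its 5 log2 fold changes lay between -0.01 and 0.03. Its share of the counts on the 13 mitochondrial mRNAs was 0.767% to 0.783% in FIDch, above every IS library at 0.541% to 0.7445%. That share was 0.711% to 0.835% in ISch and 0.698% to 0.781% in FID, both overlapping IS and FIDch.

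**Figure D1:**
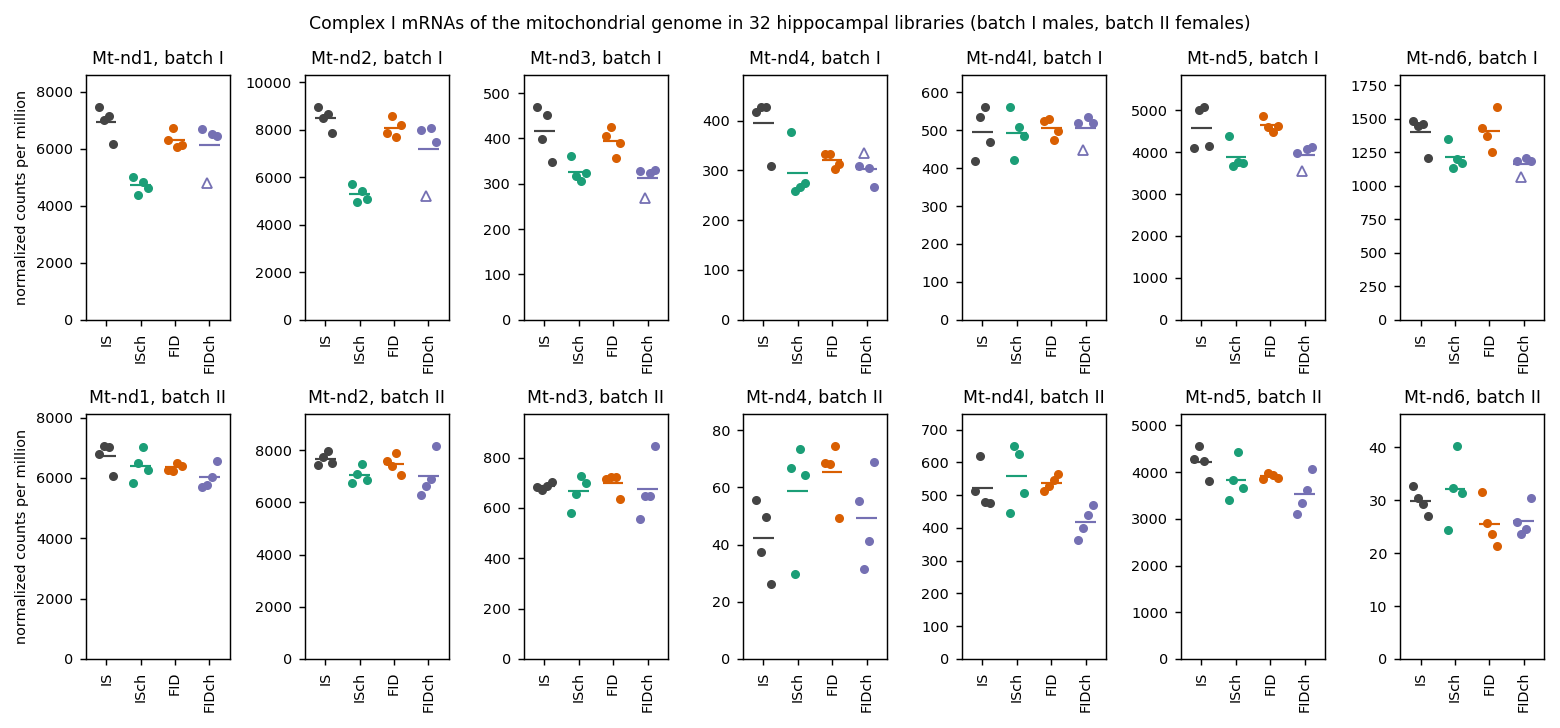
Normalized CPM (linear axes from 0) of the 7 complex I mRNAs in each library, by diet group, in batch I (upper row) and batch II (lower row). Points are libraries, horizontal lines are means of 4, and the open triangle is FIDch replicate 2 of batch I. ISch lies lowest for Mt-nd1 and Mt-nd2 in batch I, and Mt-nd4 and Mt-nd6 are far lower in batch II than in batch I.

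Fold changes were taken from edgeR fits of all genes, with each pair of groups fitted on its own. The study's criterion, used here, asks for a log2 fold change beyond 0.2 in size together with p under 0.05 before adjustment. In ISch against IS of batch I, 6 of the 7 genes met it, all of them lower in ISch, and Mt-nd4l did not. Of all 13956 genes tested there, 8.06% met the criterion and 3.54% met it in the lower direction. The median log2 fold change of the 7 genes was -0.35, with all genes at a median of -0.001. Without ISch replicates 1 and 2, the count was 6 and the median was -0.41.

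In FIDch against IS of batch I, 5 of the 7 genes met the criterion, all lower in FIDch, while Mt-nd1 and Mt-nd4l did not. The share among all genes was 6.12%, with 3.21% lower. The median of the 7 genes was -0.24. It was -0.175 without FIDch replicate 2, when 3 genes met the criterion, Mt-nd3, Mt-nd4 and Mt-nd6. Leaving out IS replicate 2 or IS replicate 3 also brought the count to 3. In FID against IS of batch I, Mt-nd4 alone met the criterion, as lower in FID, where 4.62% of all genes did and 2.28% did as lower. The median of the 7 genes was -0.08 there.

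In FIDch against FID of batch I, Mt-nd3, Mt-nd5 and Mt-nd6 met the criterion as lower in FIDch, against 13% of all genes in either direction and 7.24% in that direction. The median of the 7 genes was -0.18, and -0.13 without FIDch replicate 2. In FIDch against ISch of batch I, Mt-nd1 and Mt-nd2 met the criterion as higher in FIDch, at log2 fold changes of 0.37 and 0.43 with standard errors of 0.085 and 0.106. Of all genes 8.12% met the criterion there and 3.09% met it as higher. Without FIDch replicate 2 these 2 values were 0.47 and 0.56, and without ISch replicates 1 and 2 as well they were 0.46 and 0.57. The 5 comparisons of a batch share groups, so their values stand side by side and are not independent of each other.

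In batch II, Mt-nd4l was the gene whose FIDch libraries lay apart from those of IS and FID by CPM. It had 513.5, 620, 478 and 475 CPM in IS, 445, 650.4, 626 and 507.5 CPM in ISch and 511, 528, 545 and 564 CPM in FID. FIDch had 364.5, 400, 439 and 469 CPM. All FIDch libraries lay below all IS and all FID libraries and overlapped ISch. The log2 fold change of FIDch was -0.32 (standard error 0.097) against IS, -0.365 (standard error 0.072) against FID and -0.415 (standard error 0.120) against ISch.

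Mt-nd5 in batch II had 4283, 4563, 4232 and 3799 CPM in IS, 3402, 3829, 4431 and 3660 CPM in ISch and 3858, 3979, 3928 and 3880 CPM in FID. FIDch had 3109, 3335, 3607 and 4073 CPM. The ranges of the diet groups overlapped, and FIDch against IS was at -0.26 (standard error 0.082) on the log2 scale. Mt-nd4 had 55.6, 37.2, 49.7 and 26.1 CPM in IS and 68.6, 68.3, 74.5 and 49.3 CPM in FID of batch II, which overlapped through FID replicate 4. Its FID against IS value was 0.63 (standard error 0.188), of the opposite sign to the -0.31 of batch I. Mt-nd4l, on the same bicistronic mRNA, stood at 0.02 (standard error 0.085) in batch I and 0.04 (0.073) in batch II in that comparison. Neither the difference in Mt-nd4 between the batches nor that between Mt-nd4 and Mt-nd4l was tested. The summed level of the dentate gyrus markers also differed with choline in batch II, at 267 to 305 CPM in ISch and 242 to 285 CPM in FIDch against 185 to 216.5 CPM in IS and 194.5 to 218 CPM in FID, with none of its 3 markers at 0 throughout the batch. The microglia markers stood at 159 to 185 CPM in ISch and 164 to 174 CPM in FIDch of batch II, both below IS at 187 to 198 CPM, and FIDch was also below FID at 182 to 203 CPM. None of these 4 markers was at 0 throughout the batch. The choroid plexus list was lower in FIDch than in IS of batch II, at 3.46 to 4.30 CPM against 4.75 to 7.12 CPM. The markers of each list were only summed, so whether a single gene carries any of these differences is not shown. The part of these cell types in the batch II results was not tested. The group means of Mt-nd3 in batch II lay between 666 and 699 CPM, and those of Mt-nd6 between 25.6 and 32.1 CPM.

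Mt-nd1, Mt-nd2, Mt-nd3 and Mt-nd6 met the criterion in none of the 5 comparisons of batch II. ISch against IS, which gave -0.56 for Mt-nd1 and -0.68 for Mt-nd2 in batch I, gave -0.07 and -0.13 in batch II, with standard errors of 0.061 and 0.039. The ISch and IS libraries of batch II overlapped for Mt-nd1, at 5834 to 7026 CPM against 6054 to 7066 CPM. They also overlapped for Mt-nd2, at 6748 to 7487 CPM against 7455 to 7970 CPM. Whether the batches differ in these fold changes was not tested, since the genes were chosen with these contrasts in view.

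By the criterion, 1 of the 7 genes was called in FID against IS of batch II (Mt-nd4, higher in FID), where 6.47% of all genes met it and 3.08% met it as higher. In FIDch against IS, 2 were called, Mt-nd4l and Mt-nd5, both lower in FIDch, with 8.98% of all genes at the criterion and 4.82% lower. No member was called in ISch against IS in the edgeR fit, where 1 of the 7 had an unadjusted p under 0.05, DESeq2 gave 0 at an adjusted p under 0.05, and 10.3% of all genes met the criterion. Mt-nd4l was the single call in FIDch against FID, where 12.7% of all genes met the criterion and 7.07% met it as lower. It was also the single call in FIDch against ISch, where the shares were 4.57% and 2.75%. The medians of the 7 genes in these 5 comparisons of batch II were -0.04, -0.16, -0.045, -0.10 and -0.12 in the order given. Leaving out FIDch replicate 4 of batch II raised the number called from 2 to 5 in FIDch against IS, from 1 to 3 in FIDch against FID and from 1 to 2 in FIDch against ISch. All genes at the criterion rose as well, in the same order from 1317 to 1484, from 1859 to 1978 and from 663 to 1025.

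After Benjamini-Hochberg adjustment in edgeR, the share of all genes with p under 0.05 in batch I was 0% for FID against IS, 0.131% for FIDch against IS, 0.208% for ISch against IS, 1.28% for FIDch against FID and 0.043% for FIDch against ISch. The 0% of FID against IS stood beside 787 genes with an unadjusted p under 0.05 in edgeR and 2 genes with an adjusted p under 0.05 in DESeq2. In batch II the shares were 0.191%, 0.907%, 2.54%, 2.28% and 0.00689% in the same order. These shares are given for scale, and nothing is read from the members' counts against them, because the genes were proposed from these contrasts.

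**Figure D2:**
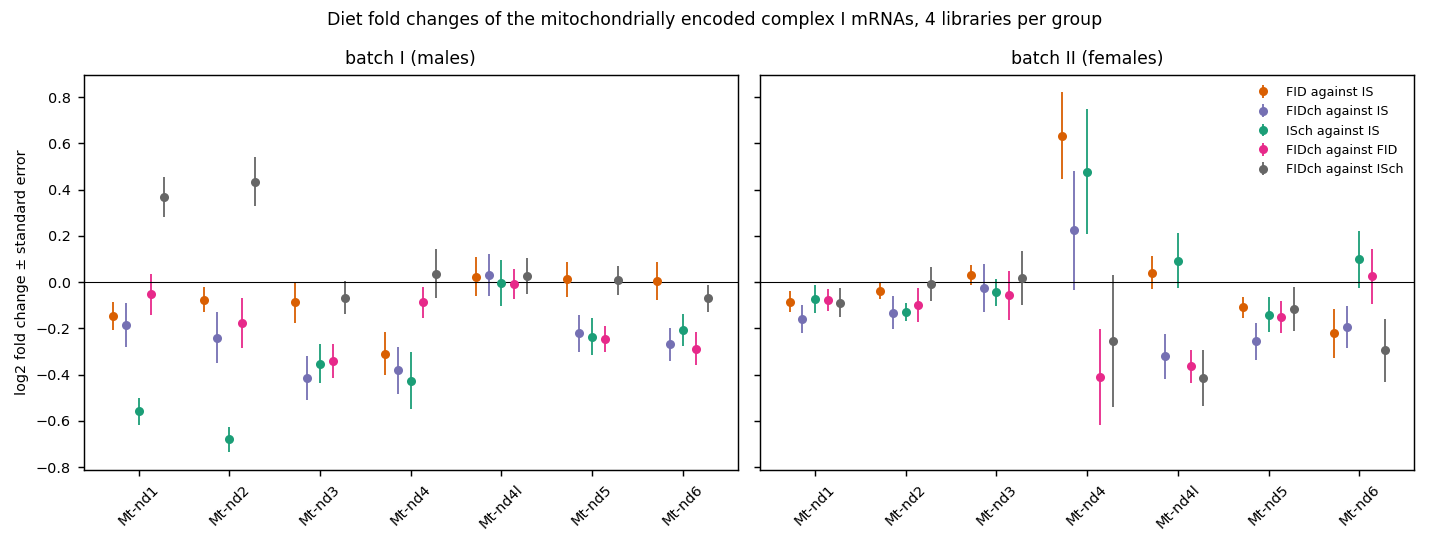
Log2 fold changes of the 7 complex I mRNAs (y axis) in the 5 diet comparisons of each batch, with 4 libraries per group. Points are estimates of the edgeR fits and bars are 1 standard error to either side. ISch against IS reaches -0.68 for Mt-nd2 in batch I and -0.13 in batch II, and Mt-nd4 has the widest bars in batch II.

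Complex I mRNAs shared the library with 6 other mitochondrial mRNAs, and a share of the counts on these 13 does not depend on how libraries are scaled. The 7 genes together took 29.9% to 32.3% of these counts in IS of batch I, and 25.5% to 26.4% in ISch. FID had 30.6% to 32.4% and FIDch had 27.1% to 31.2%. The lowest FIDch value was that of replicate 2. Mt-nd2 alone took 11.4% to 11.8% in IS and 8.34% to 8.58% in ISch. FID had 11.4% to 11.9% and FIDch ran from 9.01% in replicate 2 to 11.9%. The counts of Mt-nd2 were 51.1% ± 1.67 of those of Mt-co1, a core subunit of cytochrome c oxidase, in IS and 30.45% ± 0.455 of them in ISch (SD, n = 4). FID had 52.3% ± 1.51 and FIDch had 46.0% ± 9.06. In the FIDch group this ratio ran from 32.5% in replicate 2 to 51.8%.

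The other 6 mitochondrial mRNAs were not all on the same side as the complex I mRNAs in batch I. In ISch against IS, Mt-co3 was at -0.47 (standard error 0.045), Mt-atp6 at -0.32 (0.052) and Mt-cyb at -0.26 (0.054), while Mt-co1 was at 0.07 (0.047), Mt-co2 at 0.20 (0.056) and Mt-atp8 at 0.40 (0.058). Mt-atp8, a small subunit of ATP synthase, took 1.05% to 1.165% of the 13 mRNAs' counts in ISch and 1.10% to 1.12% in FIDch, replicate 2 included, against 0.680% to 0.759% in IS and 0.672% to 0.753% in FID. Both choline groups thus lay apart from both groups without choline for Mt-atp8. Its log2 fold change was 0.535 (standard error 0.063) for FIDch against FID, and 0.59 without FIDch replicate 2. In batch II the choline groups did not both lie apart in this way. The Mt-atp8 share was 0.466% to 0.497% in ISch, above every IS and FID library. It was 0.380% to 0.433% in FIDch, overlapping both IS at 0.346% to 0.447% and FID at 0.329% to 0.397%. The log2 fold change of Mt-atp8 in ISch against IS of batch II was 0.26 (standard error 0.0965). This met the criterion, though the CPM ranges overlapped. Mt-co1 took 27.6% to 28.0% of the counts in ISch and 27.7% in FIDch replicate 2, against 21.7% to 23.4% in the other 11 libraries of batch I. In batch II, Mt-co1 took 28.0% to 30.6% in all 16 libraries. Mt-co2 took 10.2% to 10.35% in ISch, 9.58% in FIDch replicate 2 and 7.14% to 7.93% in the other 11 libraries.

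**Figure D3:**
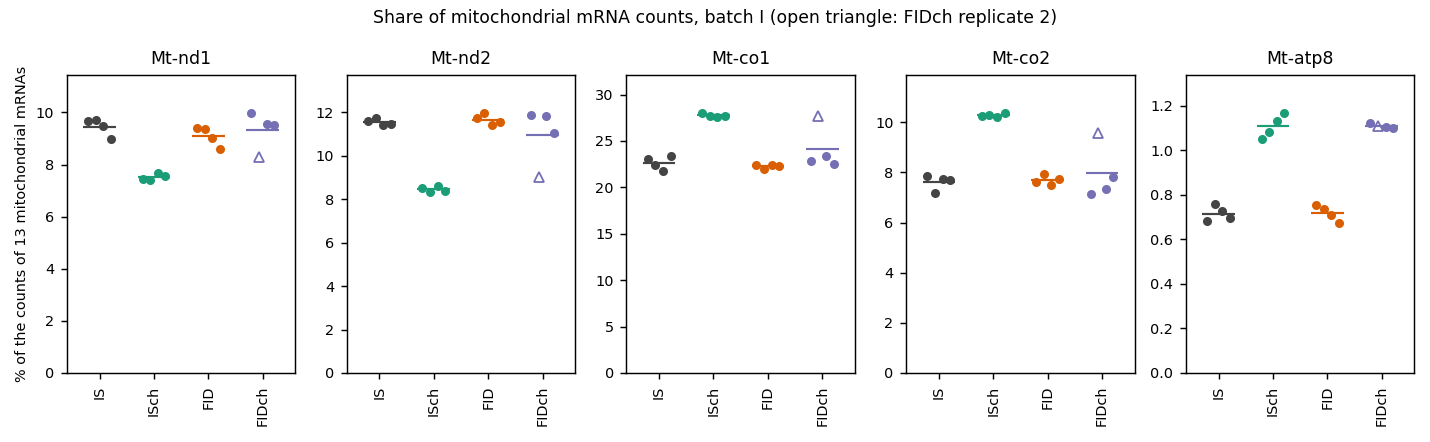
Share of the counts of 13 mitochondrial mRNAs (y axis, %, from 0) taken by Mt-nd1, Mt-nd2, Mt-co1, Mt-co2 and Mt-atp8 in the 16 libraries of batch I, by diet group. Points are libraries and lines are means of 4. FIDch replicate 2 (open triangle) lies at 9.01% for Mt-nd2 and 27.7% for Mt-co1, beside ISch, and for Mt-atp8 at 1.11%, inside the ranges of both FIDch and ISch.

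In batch II the shares of the complex I mRNAs were closer together. All 7 genes took 25.6% to 27.0% of the 13 mRNAs' counts in IS, and 23.9% to 25.3% in ISch. FID had 25.2% to 26.6% and FIDch had 24.4% to 25.4%. The IS libraries lay above all ISch and all FIDch libraries. Mt-nd1 took 8.78% to 8.99% in IS against 8.29% to 8.66% in ISch and 8.06% to 8.76% in FIDch. Mt-nd5 took 5.30% to 5.80% in IS and 5.26% to 5.39% in FID, both above FIDch at 4.78% to 5.17%. The Mt-nd4l share in FIDch, 0.56% to 0.629%, overlapped IS at 0.5985% to 0.788%, unlike its CPM. It lay below FID at 0.708% to 0.765% and ISch at 0.660% to 0.836%. By composition over the 13 mRNAs, batch II libraries were often nearest to a group other than their own. For example, IS replicate 1 was nearest to ISch and ISch replicate 2 to IS. The distance weighs all 13 mRNAs alike on the log2 scale, and the Mt-nd4 share ran from 0.0378% to 0.101% over batch II. In ISch replicate 2 the Mt-nd4 share was 0.038%, against 0.085% to 0.099% in the other ISch libraries of batch II. How far Mt-nd4 alone sets the nearest group was not tested.

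Of the 7 genes, Mt-nd6 and Mt-nd4 differed most between the batches. Mt-nd6 ran from 1068 to 1593 CPM in batch I and from 21.4 to 40.3 CPM in batch II, a ratio of the batch means of 45.7. Mt-nd4 ran from 258 to 428 CPM in batch I and from 26.1 to 74.5 CPM in batch II, a ratio of 6.10. The ranges did not overlap for either gene. Only 0.0794% of 13861 genes tested in both batches had a lower ratio of batch II over batch I than Mt-nd6, and 0.837% had a lower ratio than Mt-nd4. Mt-nd3 went the other way, from 269 to 471 CPM in batch I to 555 to 847 CPM in batch II, 1.88 times the batch I mean. The ranges of Mt-nd1, Mt-nd2, Mt-nd4l and Mt-nd5 overlapped between the batches, with batch II means at 1.06, 1.005, 1.02 and 0.908 times those of batch I.

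Other mitochondrial genes also differed between the batches. Of 37 mitochondrial genes in the tables, 19 had at least 1000 counts in a batch, and 6 of these, Mt-nd6 and Mt-nd4 among them, took an over 5-fold higher share of all counts in batch I, while 0 did so in batch II. Neither the strand setting of the counting nor its treatment of reads matching several places is given in the sources used here. Reads of a gene and of a transcript on the opposite strand therefore cannot be told apart, nor can reads shared with near-identical nuclear copies of mitochondrial genes, and the levels of Mt-nd6 and Mt-nd4 are uncertain in this respect. Mt-nd4 had a coefficient of variation of 30.7% over the batch II libraries, against 6.94% for Mt-nd1 and 7.25% for Mt-nd2. Over batch I these were 17.2%, 16.3% and 19.9%. The order of the 7 genes by level is not given, since coding lengths were not at hand.

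**Figure D4:**
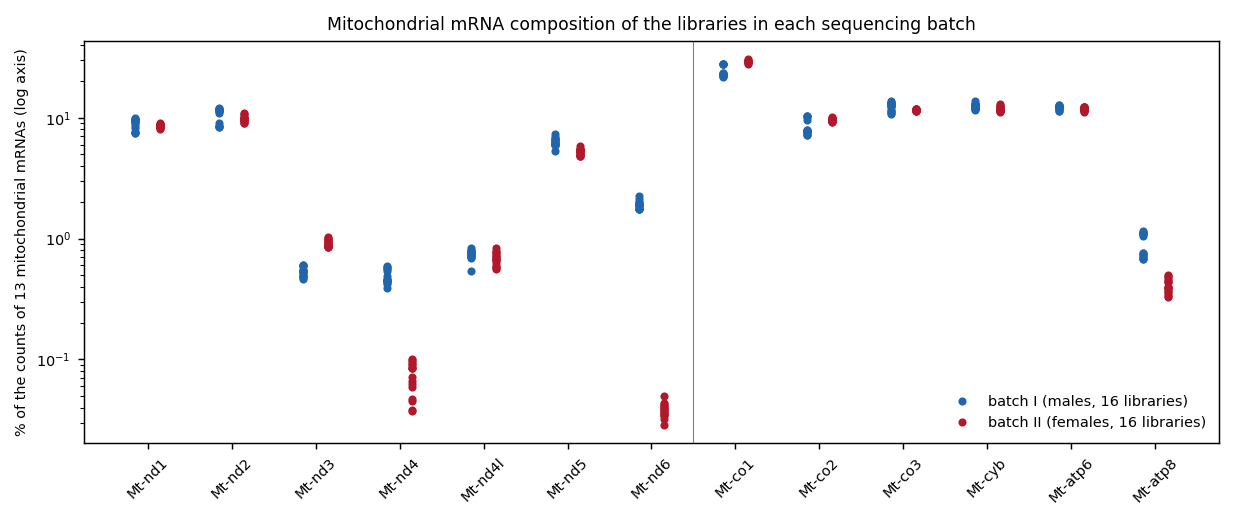
Share of the counts of 13 mitochondrial mRNAs (y axis, %, logarithmic) taken by each mRNA in the 16 libraries of batch I (blue) and the 16 of batch II (red), with complex I mRNAs left of the vertical line. Points are libraries. Mt-nd6 and Mt-nd4 lie far lower in batch II, and in batch I the points of Mt-nd2, Mt-co1, Mt-co2 and Mt-atp8 fall into separate clusters.

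Nuclear genes of complex I were read from the same fits. Of 37 nuclear subunit symbols listed, 34 or 35 were tested, depending on the comparison. Of all genes, 4.57% to 13% met the criterion in a comparison. In ISch against IS of batch I, 2 tested nuclear subunits met the criterion, both lower, Ndufc1 at -0.27 (standard error 0.118, edgeR adjusted p = 0.467) and Ndufb8 at -0.24 (0.084, adjusted p = 0.389), both accessory subunits of the membrane arm. The list's median log2 fold change was -0.07, beside -0.35 for the 7 mitochondrial genes and -0.001 for all genes. In FIDch against IS of batch I, 1 nuclear subunit met the criterion, Ndufc1 at -0.28 (0.126, adjusted p = 0.623), with a list median of -0.04. Without FIDch replicate 2 no nuclear subunit met the criterion there. In FID against IS, 2 did so as lower, Ndufb8 at -0.24 (0.099, adjusted p = 0.786) and Ndufb7, named after its values were seen, at -0.235 (0.105, adjusted p = 0.786). The list's median there was -0.10.

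In FIDch against FID of batch I, 8 of the 36 nuclear subunit entries tested met the criterion, all higher in FIDch. Of all genes, 13% met it in either direction there, 7.24% as lower and the rest as higher. The list's median was 0.07 where the 7 mitochondrial genes had -0.18. The largest were Ndufa12 at 0.47 (standard error 0.156, edgeR adjusted p = 0.152) and Ndufa2 at 0.31 (0.0945, adjusted p = 0.121). None of the 8 had an adjusted p under 0.05. Without FIDch replicate 2 the count was again 8, the list's median was 0.08, and Ndufa12 and Ndufa2 were at 0.54 and 0.325. In FIDch against ISch of batch I the single call was Ndufs7, an iron-sulfur subunit of the hydrophilic arm, at 0.26 (0.066, adjusted p = 0.157), and at 0.27 without FIDch replicate 2. In batch II between 0 and 1 nuclear subunits met the criterion in each comparison. The call was Ndufa12 each time, at -0.52 (0.087, adjusted p = 0.0159) in ISch against IS, at -0.32 (0.115, adjusted p = 0.263) in FIDch against IS and, named after its values were seen, at -0.31 (0.117, adjusted p = 0.195) in FIDch against FID. The nuclear list's medians in batch II lay between 0.00 and 0.075. The summed level of the nuclear subunits was 2203 to 2845 CPM in IS, 2306 to 2389 CPM in ISch, and for FID and FIDch of batch I 2225 to 2566 and 2322 to 2503 CPM, and these ranges overlapped.

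Of the complex I assembly factors, 16 of 17 listed were tested, and between 0 and 3 met the criterion in a comparison. Beside this, 4.57% to 13% of all genes met it, depending on the comparison. Ndufaf6 met the criterion as higher against IS in FID (0.36, standard error 0.120, edgeR adjusted p = 0.786) and in ISch (0.33, 0.119, adjusted p = 0.418) of batch I and in FIDch of batch II (0.285, 0.115, adjusted p = 0.322). Other assembly factors went both ways. In batch II, Ndufaf8 was at 0.40 (0.108, adjusted p = 0.179) in FID against IS and -0.42 (0.124, adjusted p = 0.11) in FIDch against FID. There Foxred1 was at 0.25 (0.065, adjusted p = 0.0755) in FIDch against FID and 0.235 (0.072, adjusted p = 0.556) against ISch. Tmem126b was at 0.20 (0.068, adjusted p = 0.245) in FIDch against IS. In batch I, Ndufaf4 was at -0.31 (0.096, adjusted p = 0.128) in FIDch against FID and Ndufaf7 at -0.25 (0.085, adjusted p = 0.237) against ISch. The medians of this list lay between -0.10 and 0.05 over the 10 comparisons, and those of all genes between -0.01 and 0.01. Without FIDch replicate 2 of batch I, the assembly factors at the criterion went from 2 to 0 in FIDch against IS, from 3 to 1 in FIDch against FID and from 2 to 1 in FIDch against ISch. Of genes for mitochondrial transcription and RNA processing, 30 of 32 listed were tested and between 0 and 4 met the criterion with all libraries, beside the same 4.57% to 13% of all genes. Without FIDch replicate 2 of batch I, this number went from 2 to 3 in FIDch against IS, all lower in FIDch. It was again 4 in FIDch against FID and went from 2 to 6 in FIDch against ISch, 3 higher and 3 lower. Without this library, all genes at the criterion went, in the same order, from 838 to 820, from 1811 to 1973 and from 1133 to 1634. With all libraries, the 2 genes of this list called in FIDch against ISch were Supv3l1, at 0.23 (standard error 0.087, edgeR adjusted p = 0.271), and Pnpt1, at -0.265 (0.097, adjusted p = 0.263), which act in mitochondrial RNA degradation. Tfam, which packages mitochondrial DNA and is needed to start its transcription, met the criterion as lower in FIDch of batch I, at -0.31 against IS (0.0975, adjusted p = 0.417) and -0.34 against FID (0.095, adjusted p = 0.0979), and at -0.25 and -0.28 without FIDch replicate 2. Ppargc1a, a coactivator of mitochondrial biogenesis genes, met the criterion as higher in FID against IS of batch I, at 0.41 (0.154, adjusted p = 0.786). Named after its values were seen, it also met it as lower in FIDch against FID of batch I, at -0.27 (0.110, adjusted p = 0.226), but not without FIDch replicate 2, at -0.25 (0.119). It met it as lower in FIDch of batch II too, at -0.27 against IS (0.093, adjusted p = 0.247) and -0.31 against FID (0.091, adjusted p = 0.106). Fastk met the criterion as lower in FID against IS of batch I, at -0.245 (0.072, adjusted p = 0.786). Fastkd1 did so in ISch against IS of batch II, at -0.30 (0.089, adjusted p = 0.12). Hsd17b10 met it as higher in FIDch against FID of batch II, at 0.23 (0.060, adjusted p = 0.0764). The medians of this list lay between -0.05 and 0.07.

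Among themselves, the 7 genes varied together unevenly across libraries. Over the 16 libraries of batch I, Pearson correlations of log2 CPM between 2 of the 7 genes ran from 0.21 to 0.98 over 21 pairs, with a median of 0.66. The highest was that of Mt-nd1 with Mt-nd2 and the lowest that of Mt-nd3 with Mt-nd4l. In batch II they ran from 0.03 to 0.95, with a median of 0.50, highest for Mt-nd1 with Mt-nd5 and lowest for Mt-nd4 with Mt-nd4l. With the diet group means taken out, the medians were 0.53 in batch I and 0.60 in batch II. These points share libraries, totals and neighbouring transcripts, so the correlations are descriptions over 16 libraries each.

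The mean log2 CPM of the 7 genes was set against library measures in the same way. In batch I its Pearson and Spearman correlations were 0.09 and -0.06 with the total count, 0.15 and 0.09 with the share of the other 24 mitochondrial genes, and 0.24 and 0.17 with the summed nuclear complex I level. In batch II they were -0.54 and -0.51 with the total count, 0.26 and 0.18 with the other mitochondrial genes, and 0.08 and 0.03 with the nuclear level. Leaving out the 2 libraries farthest from the median total, the Pearson correlation with the total was -0.22 in batch I and -0.52 in batch II. The share of all counts on ribosomal protein genes correlated at 0.02 and -0.09 in batch I and 0.22 and 0.06 in batch II. The part of library totals in the results was not tested.

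Of 13346 genes with a symbol found once in the table, none of them mitochondrial, the 5 whose levels followed the mean of the 7 genes most closely in both batches included Tpm2, a tropomyosin, Slc38a3, an amino acid transporter of astrocytes, and Retreg2. Their Pearson correlations over 16 libraries were 0.57 and 0.60 for Tpm2, 0.56 and 0.58 for Slc38a3, and 0.67 and 0.56 for Retreg2, in batch I and batch II. The other two carry provisional names and had correlations of 0.60 and 0.67, and of 0.59 and 0.73. Each of the 7 genes is part of the mean, and their own correlations with it in batch I were 0.45 for Mt-nd4l and 0.77 to 0.90 for the others. Of the other mitochondrial mRNAs, Mt-atp6 stood at 0.93, Mt-co3 at 0.89 and Mt-cyb at 0.81 in batch I, whereas Mt-co1 was at -0.11, Mt-co2 at -0.28 and Mt-atp8 at -0.53. In batch II these 6 lay between 0.45 and 0.81.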

How the data were processed

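Hippocampal mRNA libraries of 32 rats (16 males as batch I, 16 females as batch II, 4 per diet group) were analysed. The authors deposited raw read counts per gene, 1 table per batch. Per the labels, FastQC, Trimmomatic, HISAT2 and featureCounts (Subread) were used with the Rnor_6.0 build. Strand setting, multi-mapping rule and annotation version are not given in the sources used here. Members were found by the symbol in the row name. The members and all gene lists were chosen with earlier results of these data known.

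Counts were fitted with edgeR 4.0.16 in R 4.3.3 (glmQLFit, glmQLFTest, TMM, filterByExpr), each pair of diet groups separately and p-values adjusted over all genes by Benjamini-Hochberg. The fit was tested on simulated data. DESeq2 1.42.0 served as an alternative. Other scalings, filters, a replicate block and leaving out each library were also tried. Named pathway genes were, per comparison, up to 2 per direction with the largest change among those at the criterion, and exceptions are stated. The 5 genes most like the members had the largest value of the smaller of their correlations in the 2 batches. Each of 48 replicate pairs differed by more than counting noise, with a chi-square per gene of 2.02 to 25.2. Levels per coding length were not computed. Sequences are not shown.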

Additional observations from a re-analysis of the deposited data

Results flagged for a closer look

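Each group of 4 libraries was examined for a library whose gap to the nearest of the others, divided by the group's range, exceeded Dixon's 95% critical value, over CPM and shares of the 13 mitochondrial mRNAs. Of 112 groups 14 held such a library, where chance gives about 1 in 20 groups. Both measures come from the same counts, so these are not independent of each other.

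In batch I, FIDch replicate 2 was lowest for Mt-nd1 at 4792 CPM, Mt-nd3 at 269.2 CPM, Mt-nd4l at 447.6 CPM and Mt-nd6 at 1068 CPM, and stood apart in its Mt-nd6 share at 1.848%. IS replicate 4 of batch I was lowest for Mt-nd4 at 309.4 CPM and for Mt-nd6 at 1210 CPM. ISch replicate 1 of batch I was highest for Mt-nd4 at 376.7 CPM and for Mt-nd5 at 4397 CPM, and apart in its Mt-nd6 share at 2.007%. ISch replicate 3 of batch I stood apart in its Mt-nd3 share at 0.4861%.

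In batch II, FID replicate 4 was lowest for Mt-nd3 at 636.8 CPM and apart in its Mt-nd3 share at 0.8636%. IS replicate 2 of batch II was highest for the Mt-nd1 share at 8.986%.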

How the results depend on the processing

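No median of the 7 genes and none of the 22 of 70 fold changes at the criterion changed sign under the settings tried, except that the near-zero medians of FIDch against ISch in batch I and ISch against IS in batch II crossed 0 when 1 library was left out. Fold changes moved by at most 0.04 (log2) under other settings and 0.22 without 1 library, and the median of all genes by at most 0.026. With an adjusted p under 0.05 in edgeR in place of the criterion, the numbers in batch I were 0, 0, 2, 1 and 0 for FID against IS, FIDch against IS, ISch against IS, FIDch against FID and FIDch against ISch, and in batch II 0, 0, 0, 1 and 0. At an unadjusted p under 0.05 in edgeR they were 2, 5, 6, 3 and 2, and 2, 3, 1, 1 and 1. Of all genes, 787, 1081, 1471, 2489 and 1898 had such a p in batch I, and 1641, 1886, 2362, 2648 and 1152 in batch II. By DESeq2's adjusted p the numbers of the 7 genes were 0, 1, 3, 3 and 1, and 0, 0, 0, 1 and 0. Those of all genes were 2, 46, 70, 280 and 74, and 194, 392, 678, 816 and 37. By the criterion in batch II, FID against IS had 2 of the 7 genes with all genes of at least 1 count, with DESeq2 and with the replicate block. FIDch against FID had 2 with all genes of at least 1 count. FIDch against ISch had 2 with that filter, with DESeq2 and with 4 diet groups in one fit. The cause was not tested.

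Without 1 library, the number at the criterion ran in batch I from 1 to 1, 3 to 6, 4 to 6, 3 to 3 and 2 to 2, in the same order, and in batch II from 1 to 2, 2 to 5, 0 to 1, 1 to 3 and 1 to 2. The medians ran in batch I from -0.111 to -0.042, -0.291 to -0.175, -0.433 to -0.294, -0.234 to -0.133 and -0.023 to 0.093, and in batch II from -0.062 to -0.008, -0.22 to -0.135, -0.086 to 0.015, -0.182 to -0.053 and -0.195 to -0.042. The lowest number in FIDch against IS of batch I, 3, came without IS replicate 2, IS replicate 3 or FIDch replicate 2. In batch II the count was 2 in FID against IS without IS replicate 4 or FID replicate 1, 4 in FIDch against IS without IS replicate 4 and 5 without FIDch replicate 4, and 1 in ISch against IS without IS replicate 1 or ISch replicate 1, 2 or 3. It was 2 in FIDch against FID without FID replicate 4 and 3 without FIDch replicate 4, and 2 in FIDch against ISch without ISch replicate 1 or FIDch replicate 4. Same-numbered libraries had correlated deviations of -0.15 to 0.22, and in 0 of 10 comparisons was every pair over 0.1, so the number was not taken to pair them. With the replicate block the numbers were 1, 5, 6, 3 and 2 in batch I and 2, 2, 0, 1 and 1 in batch II.

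All genes at the criterion in FID against IS of batch I numbered 640, and 1023 with all genes of at least 1 count, 392 without IS replicate 1 and 1236 without IS replicate 3. Without IS replicate 3, FIDch against IS went from 838 to 1267 and ISch against IS from 1125 to 1810, and leaving out ISch replicates 1 and 2, a choice made after seeing the data, gave 679. The pathway counts without FIDch replicate 2 were also chosen after seeing the data. In batch II FIDch against ISch went from 663 to 1025 without FIDch replicate 4. The alternative read length for the order of genes by level was not run, since coding lengths were not at hand.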
